A study of Rattus norvegicus with 56 samples.

Results

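The miRNAs of the rat hippocampus were compared 1 m after fluid percussion injury, a model of traumatic brain injury (TBI) in which a fluid pressure pulse strikes the dura, and 1 m after sham surgery. The members are the libraries labelled with this interval, 8 of the 56 in the series: 4 TBI rats (X756, X769, X757 and X768) and 4 sham-injured controls (X783, X795, X784 and X794). Each library held small RNA, prepared from total RNA of hippocampal tissue of 1 rat, and the treatment in the labels was either TBI or sham surgery. The library numbers in the labels also differed between the groups, 21 and 22 in sham rats and 23 and 24 in TBI rats, so library number and injury cannot be told apart. Strain, sex and age were not given in the sources used here. The other 6 intervals (24 h, 2 w, 2 m, 3 m, 6 m and 1 y), each with 4 TBI and 4 sham rats of its own, were used to ask whether an injury effect at 1 m differed from that at other times.

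A miRNA is a short RNA that loads into Argonaute and represses mRNAs that pair with its seed, bases 2 to 8. Neurons, microglia, astrocytes, oligodendrocytes, blood vessels and blood each express miRNAs of their own, and a sample of whole hippocampus holds them all. Injured brain is known for a lasting activation of microglia and astrocytes, in which NF-κB switches on miR-155, which promotes inflammatory signalling, and miR-146a, which restrains it by targeting IRAK1 and TRAF6.

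The sequences below carry the 2 patterns described in the results, and the capitals mark the seed. The first set holds 3 miRNAs of immune and inflamed cells, together with miR-146b-5p, which shares the seed of miR-146a-5p but comes from another gene. The second set holds miRNAs with higher values in TBI rats and many G and C bases, and the third set holds miRNAs with lower values in TBI rats and few. All are mature rat sequences from RefSeq (assembly GRCr8), which gave a sequence for 330 of the 367 miRNAs in the table.
miR-146a-5p: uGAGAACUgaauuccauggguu
miR-146b-5p: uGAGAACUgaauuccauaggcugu
miR-155-5p: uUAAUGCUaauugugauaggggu
miR-142-5p: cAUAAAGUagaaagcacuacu
miR-149-5p: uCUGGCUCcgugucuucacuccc
miR-139-5p: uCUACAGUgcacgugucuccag
miR-330-5p: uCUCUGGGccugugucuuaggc
miR-504: aGACCCUGgucugcacucuguc
miR-99b-5p: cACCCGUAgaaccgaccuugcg
miR-33-5p: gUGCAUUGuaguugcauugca
miR-219a-5p: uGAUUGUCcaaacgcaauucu
miR-144-5p: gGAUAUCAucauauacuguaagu
miR-190a-5p: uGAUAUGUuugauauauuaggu
miR-30e-5p: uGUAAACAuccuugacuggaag

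The deposited values were raw read counts of 367 mature miRNAs, of which 309 carry a 5p name and 5 a 3p name, so most results concern 5p arms. Total counts ran from 5243965 to 11885871 with overlapping ranges in the groups (p = 0.686, exact permutation test, two-sided). At least 1 read was counted at 1 m for 317 miRNAs, and 240 passed the filter on low counts and were tested. The most abundant were miR-9a-5p, with 17.9% of the reads of an average library, miR-99a-5p with 12.3% and miR-26a-5p with 10.2%. Of the marker lists, the neuron-enriched miRNAs held 224492 to 285816 normalised CPM (counts scaled by library size and composition) in sham rats, the oligodendrocyte miRNAs 1681 to 2910.1 CPM and the choroid plexus miRNAs 1454 to 4572 CPM. Most of the neuron-enriched sum was miR-9a-5p, and most of the oligodendrocyte sum was miR-338-5p. The 5p arm of miR-124, the neuronal miRNA, was at 159.6 to 316 CPM over the 8 rats, and its 3p arm was not analysed here. The 5p arms of the muscle miRNAs miR-1, miR-133a, miR-133b and miR-206 were below the filter, and their 3p arms were not analysed here either. TBI rat X769 stood apart from its group in 15 of the 240 miRNAs, above the other 3 rats in 13 of them, and sham rat X783 in 8, against 0 to 3 for each of the other 6 rats. The composition factor of X769 was 0.775, the lowest of the 8 libraries, against 0.908 to 1.15 in the others. A low factor raises all normalised CPM values of a library.

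A single miRNA rose after TBI at an adjusted p under 0.05, miR-146a-5p, and 0 fell. The call was 0.417% of the miRNAs tested (quasi-likelihood test of edgeR, Benjamini-Hochberg over all 240). DESeq2's Wald test and edgeR's likelihood ratio test each called 5, adding miR-155-5p on the higher side and miR-33-5p, miR-219a-5p and miR-144-5p on the lower. At an unadjusted p under 0.05, 21 miRNAs (8.75%) had higher values after TBI and 22 (9.17%) had lower values. The groups did not overlap in 24 miRNAs, 14 (5.83%) with every TBI value above the sham values and 10 (4.17%) with every one below. The 43 miRNAs with an unadjusted p under 0.05 were 17.9% of those tested, against 4.46% to 9.25% at the other 6 intervals. Each interval was fitted on its own libraries, and the cause of this difference was not tested. In tissue of mixed cells, a change in the number of cells of a type and a change in the RNA of each cell cannot be told apart.

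miR-146a-5p measured 1447 CPM in TBI rat X756, 2212 in X769, 1829 in X757 and 2356 in X768. In the sham rats it measured 772 CPM in X783, 874 in X795, 624 in X784 and 679 in X794. Every TBI rat was well above every sham rat, and the lowest TBI value was above the highest sham value by more than the whole range of the sham rats. The level rose 2.66-fold, from 737 ± 109.6 to 1961 ± 409 CPM (SD, n = 4 rats each), a log2 fold change of 1.41 with a standard error of 0.20 (edgeR, adjusted p = 0.0012). With any of the 8 rats left out, the log2 fold change stayed between 1.31 and 1.53, with adjusted p-values of 4.03e-04 to 0.0132. The gene of miR-146a lies on chromosome 10 within a long noncoding RNA (LOC134480673) in GRCr8.

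miR-146b-5p, which has the same seed, did not pass the test. It measured 2857, 5253, 3393 and 3023 CPM in the TBI rats and 3691, 3817, 4624 and 3949.8 CPM in the sham rats. X769 was above all sham rats and the other 3 TBI rats were below all of them. The log2 fold change was -0.15 (SE 0.20, edgeR, adjusted p = 0.717), and -0.40 without X769 (edgeR, unadjusted p = 0.0135, adjusted p = 0.152). With any rat left out it lay between -0.40 and -0.046, and the difference between the effects on the 2 miRNAs was not tested.

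miR-155-5p, made from the noncoding transcript Mir155hg on chromosome 11, measured 15.8, 21.8, 21.2 and 18.2 CPM in the TBI rats. The sham rats had 7.09 (X783), 13.2 (X795), 7.24 (X784) and 6.22 CPM (X794). No TBI rat overlapped the sham rats, but X795 lay nearer to the TBI rats than to the other sham rats. The log2 fold change was 1.23 (SE 0.27), a ratio of 2.34, and it missed the threshold (edgeR, adjusted p = 0.0569, exact permutation p = 0.0286, the smallest that 4 rats against 4 can give). Without X795 the log2 fold change was 1.44 (edgeR, adjusted p = 0.00557), and without TBI rat X769 it was 1.18 (edgeR, adjusted p = 0.0306). The values rest on 47 to 178 reads per library.

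miR-142-5p, a miRNA of blood-derived cells and microglia, measured 180.3, 175, 216 and 213 CPM in the TBI rats and 117, 158, 115 and 139 CPM in the sham rats. The 4 TBI rats were above the 4 sham rats, with the gap between the groups smaller than the range within either. Its log2 fold change of 0.57 (SE 0.19) had an unadjusted p of 0.0108 and an adjusted p of 0.197 in edgeR. miR-150-5p, a lymphocyte miRNA, was at 732 to 1136 CPM after TBI and 739 to 836 CPM after sham surgery (log2 fold change 0.22, SE 0.18, edgeR, adjusted p = 0.596). miR-223-5p, from the myeloid lineage, had 3 to 11 reads per library and was below the filter. The summed level of miR-142-5p and miR-150-5p, most of it miR-150-5p, was 1101 ± 180.0 CPM in TBI rats, with the lowest at 948. In sham rats it was 911 ± 42.1 CPM, with the highest at 951 (SD, n = 4 each).

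miR-21-5p, a miRNA of reactive glia, gave no uniform direction. It measured 4102 CPM in TBI rat X756, below all sham rats (6346 to 7895 CPM), and 10033, 9211 and 8549.9 CPM in the other TBI rats, above the whole sham range. The log2 fold change was 0.18 (SE 0.23, edgeR, adjusted p = 0.7). With any 1 rat left out it lay between -0.0072 and 0.40 (edgeR, lowest unadjusted p = 0.0250, lowest adjusted p = 0.233). The 4 inflammation-induced miRNAs tested were split, with 1.41 for miR-146a-5p and 1.23 for miR-155-5p, but 0.18 for miR-21-5p and -0.15 for miR-146b-5p. Their median of 0.70, against 0.02 over all miRNAs tested, lay in the gap between them. Of the 4, 1 passed the threshold, where 0.417% of all miRNAs tested did.

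**Figure D1:**
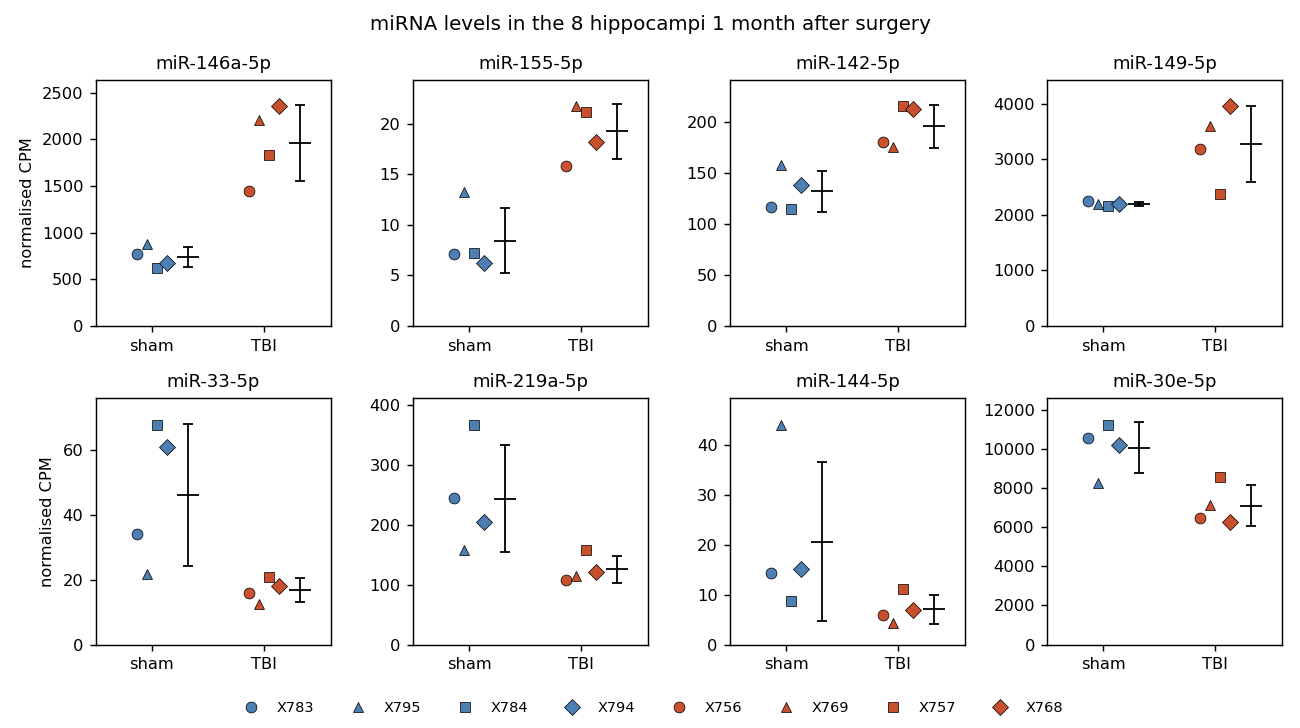
Normalised CPM (y axis, from 0) of 8 miRNAs in the 4 sham rats (blue) and 4 TBI rats (red) at 1 m, each rat with its own marker, and the mean with its SD to the right of each group. The red points lie above the blue ones for miR-146a-5p, miR-155-5p, miR-142-5p and miR-149-5p and below them for miR-33-5p, while the groups overlap for miR-219a-5p, miR-144-5p and miR-30e-5p.

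On the lower side, no miRNA passed the adjusted threshold. miR-33-5p came nearest. It lies in an intron of Srebf2, the regulator of cholesterol synthesis, and is known to repress Abca1, the cholesterol exporter. It measured 15.8, 12.4, 20.9 and 18.1 CPM in the TBI rats and 33.9, 21.7, 67.8 and 60.7 CPM in the sham rats. The TBI rats were all below the sham rats, but TBI rat X757 and sham rat X795 were almost level, and the sham rats were spread over a range much wider than that of the TBI rats. The log2 fold change was -1.45 (SE 0.34, edgeR, adjusted p = 0.0631, exact permutation p = 0.0286). Without X795 it was -1.71 (edgeR, adjusted p = 0.00408), and without sham rat X784 it was -1.21 (edgeR, adjusted p = 0.171). Leaving out sham rat X783 or TBI rat X769 also brought it under the threshold, at adjusted p-values of 0.0412 and 0.0482 in edgeR.

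miR-219a-5p, which drives the maturation of oligodendrocytes, measured 108, 114, 158 and 121 CPM in the TBI rats and 245, 157, 367 and 205 CPM in the sham rats. Only TBI rat X757 reached the lowest sham value. Its log2 fold change was -0.96 (SE 0.26, edgeR, adjusted p = 0.141). The other miRNAs on the oligodendrocyte list did not share its direction in full. miR-338-5p, from the same lineage at 1474 to 2707 CPM over the 8 rats, had a log2 fold change of 0.22 (SE 0.20, edgeR, adjusted p = 0.616), while miR-3065-5p, from the same locus as miR-338, had one of -0.99 (SE 0.38, edgeR, adjusted p = 0.238) on 6 to 50 reads per library. Of the 4 tested, 2 had positive and 2 had negative values.

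The red blood cell miRNAs miR-144-5p and miR-451-5p are neighbours on chromosome 10. miR-144-5p measured 5.93, 4.27, 11.1 and 6.96 CPM in the TBI rats and 14.4, 44.1, 8.69 and 15.1 CPM in the sham rats. miR-451-5p measured 79.9, 71.7, 90.8 and 62.5 CPM in the TBI rats and 189, 306, 39.2 and 170.3 CPM in the sham rats. In both, sham rat X795 was the highest, and sham rat X784 was the lowest sham rat, among the TBI rats for miR-144-5p and below all of them for miR-451-5p. The log2 fold changes were -1.45 (SE 0.46) and -1.20 (SE 0.42), with adjusted p-values of 0.196 and 0.198 in edgeR. Without X795 they were -0.86 and -0.85, and without X784 that of miR-451-5p was -1.54 (edgeR, adjusted p = 0.00677). miR-486, the third miRNA of the list, was at 231 ± 62.5 CPM in TBI rats and 229 ± 81.5 CPM in sham rats (SD, n = 4 each), and the summed level of the list ranged from 261 to 382 CPM after TBI and from 214 to 698 CPM after sham surgery. How much blood remained in the tissue was not tested.

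miR-126a-5p, the endothelial miRNA within Egfl7, measured 669.9, 246, 619.8 and 462 CPM in the TBI rats and 1055, 846, 650.1 and 651 CPM in the sham rats. X769 was the lowest, and X756 overlapped the 2 lowest sham rats. The log2 fold change was -0.68 (SE 0.28, edgeR, adjusted p = 0.238). miR-190a-5p, within the talin gene Tln2, measured 18.6, 12.6, 31.3 and 21 CPM after TBI and 62.7, 35.1, 32 and 32.1 CPM after sham surgery. The groups did not overlap, but X757 was next to 2 sham rats and X783 was far above the rest (log2 fold change -0.95, SE 0.31, edgeR, adjusted p = 0.196). miR-218a-5p, a neuronal miRNA within the Slit2 and Slit3 genes, measured 22184 to 36690.4 CPM after TBI and 38360.3 to 45399 CPM after sham surgery. Here too the groups did not overlap (log2 fold change -0.48, SE 0.18, edgeR, adjusted p = 0.218).

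The higher side also held abundant miRNAs that lie within protein-coding genes. miR-149-5p, within the heparan sulphate proteoglycan gene Gpc1, measured 3183, 3594, 2371 and 3953 CPM in the TBI rats and 2251, 2189, 2157 and 2196 CPM in the sham rats. The sham rats were close to each other, and X757 was only a little above them. miR-139-5p, within the phosphodiesterase gene Pde2a, measured 10276, 12333, 9452 and 12697 CPM in the TBI rats and 7746 to 8306 CPM in the sham rats. miR-330-5p, within Eml2, measured 3561, 5412, 3759 and 3872 CPM in the TBI rats and 2824 to 2920.4 CPM in the sham rats. In all 3 miRNAs the groups did not overlap and the SD of the TBI rats was several times that of the sham rats. Their log2 fold changes were 0.58 (SE 0.18), 0.49 (SE 0.16) and 0.52 (SE 0.17), each with an adjusted p of 0.196 in edgeR.

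Several values on the higher side rested on rat X769. miR-129-5p, a neuronal miRNA that represses mRNAs of ion channels, measured 36479.7 CPM in X769 and 11432, 10467 and 11945 CPM in the other TBI rats, against 8237 to 10253 CPM in the sham rats. Its log2 fold change was 0.97 (SE 0.34, edgeR, adjusted p = 0.198), and 0.31 without X769. miR-99a-5p, the second most abundant miRNA, measured 251585 CPM in X769, 108538 to 156613 CPM in the other TBI rats and 74463 to 117160.1 CPM in the sham rats. Its log2 fold change was 0.71 (SE 0.25, edgeR, adjusted p = 0.197), and 0.40 without X769. miR-504, within the Fgf13 gene, measured 1185, 3187, 1147 and 2212 CPM after TBI and 845 to 1195 CPM after sham surgery (log2 fold change 0.87, SE 0.29, edgeR, adjusted p = 0.196, and 0.49 without X769). X769 also had the highest choroid plexus level of the TBI rats, 5029.8 CPM against 1529 to 2123 CPM in the other 3, and sham rat X795 had 4572 CPM against 1454 to 2296 CPM in the other sham rats. The part of choroid plexus tissue in these values was not tested.

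The 2 sides of the comparison differed in base composition. The GC content of the mature sequence was known for 218 of the 240 miRNAs tested (90.8%), with a median of 46.4%. The 19 matched miRNAs on the higher side had a median GC content of 57.1%, and 15 of them were above the overall median. The 21 on the lower side had a median of 36.4%, and 19 of them were below it. The log2 fold change at 1 m followed the GC content over the 218 miRNAs with Pearson's r = 0.42 and Spearman's rho = 0.45, a slope of 0.18 per 10 percentage points of GC. These are descriptions across miRNAs that share the 8 libraries and are not independent. At the other intervals r lay between -0.21 and 0.03.

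The slope was not shared by all TBI rats. When the level of each miRNA was set against its mean over the 8 rats, the slope per 10 percentage points of GC was 0.147 in TBI rat X756, 0.200 in X769 and 0.100 in X768, and -0.103 in X757. The 4 sham rats lay between -0.097 and -0.0762. TBI rat X757 therefore sat with the sham rats, and the difference in mean slope did not pass (exact permutation test, p = 0.143). The average GC content weighted by reads was taken over the matched miRNAs, which leave out the abundant miR-99a-5p and miR-30d-5p. It was 41.6% ± 0.64 in TBI rats and 40.4% ± 0.20 in sham rats (SD, n = 4 each). Every TBI rat was above every sham rat (exact permutation test, p = 0.0286, the smallest possible). TBI rat X757 at 40.66% was close to the highest sham rat, X783 at 40.57%. X757 was the TBI rat nearest to the sham side in 12 of the 21 miRNAs with higher values and in 16 of the 22 with lower values, and it was the lowest TBI rat in 55 and the highest in 52 of all 240. The labels number the libraries of X756 and X757 alike, and those of X769 and X768 alike, but do not give the sequencing run. The cause of the slope was not tested.

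**Figure D2:**
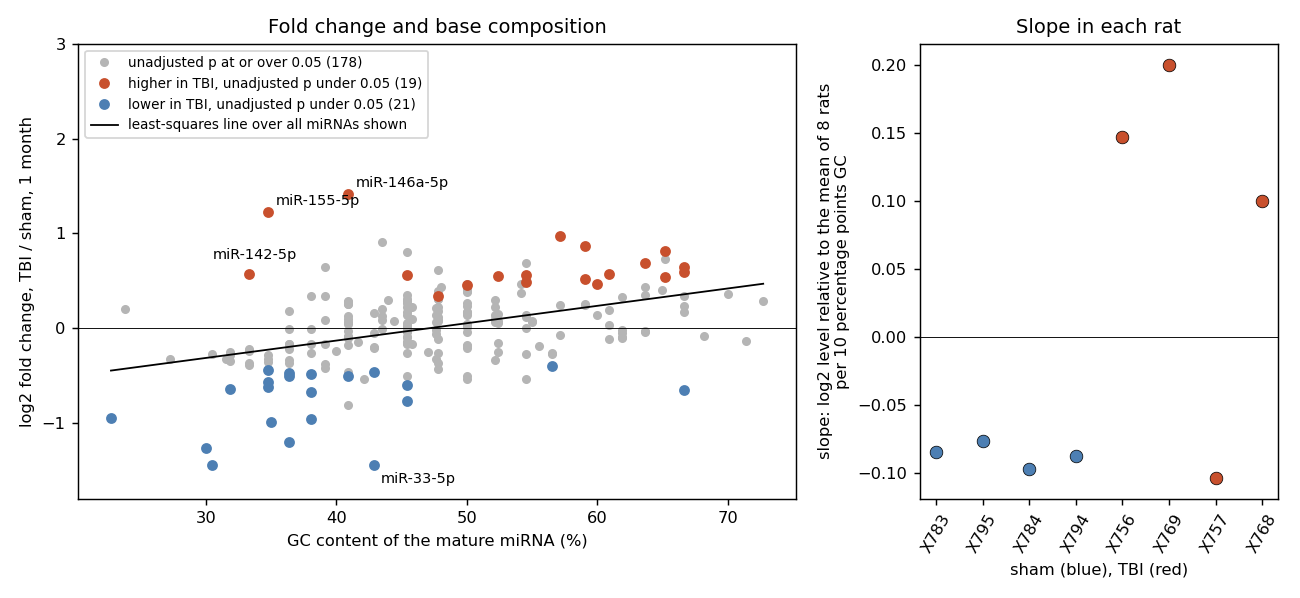
Left, the log2 fold change between TBI and sham rats at 1 m (y axis) against the GC content of the mature miRNA in percent (x axis) for 218 miRNAs, with the 19 higher (red) and 21 lower (blue) miRNAs at an unadjusted p under 0.05, and a least-squares line. Right, the slope of log2 level on GC content in each rat, sham in blue and TBI in red: X756, X769 and X768 lie at 0.100 or more and X757 lies at -0.103 with the sham rats.

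miR-146a-5p (GC content 40.9%), miR-155-5p (34.8%) and miR-142-5p (33.3%) were among the 4 miRNAs on the higher side with a GC content below the overall median. A line of log2 level, relative to the mean of the libraries, on GC content was fitted per library. It entered edgeR as a fixed offset, the GC term. With this term, the log2 fold changes of these 3 were 1.55 (SE 0.18), 1.46 (SE 0.26) and 0.84 (SE 0.18). All 3 passed the threshold over the 218 miRNAs (edgeR, adjusted p = 2.68e-04, 0.00738 and 0.0348), and no other miRNA did. Their standard errors and p-values leave out the error of the fitted lines. The term also lifts other miRNAs with few G and C bases, such as miR-190b-5p from 0.20 to 0.61, so these rises are no separate test. This setting was chosen after the data were seen. On the higher side 12 of the 19 matched miRNAs kept an unadjusted p under 0.05, and the median log2 fold change of all 19 was 0.42 in place of 0.57. On the lower side 10 of 21 did, and the median of all 21 was -0.53 in place of -0.64. Over all 218 miRNAs, 17 on the higher and 11 on the lower side had an unadjusted p under 0.05 with the term. miR-33-5p had a log2 fold change of -1.37 (SE 0.35, edgeR, adjusted p = 0.0893) and miR-219a-5p one of -0.79 (SE 0.25, edgeR, adjusted p = 0.244). miR-149-5p went from 0.58 to 0.34, miR-330-5p from 0.52 to 0.32, miR-99b-5p from 0.69 to 0.37 and miR-190a-5p from -0.95 to -0.55. miR-3552, a miRNA within the serotonin receptor gene Htr2c with a GC content of 66.7%, went the other way, from -0.66 to -0.97 (SE 0.26, edgeR, adjusted p = 0.101).

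**Figure D3:**
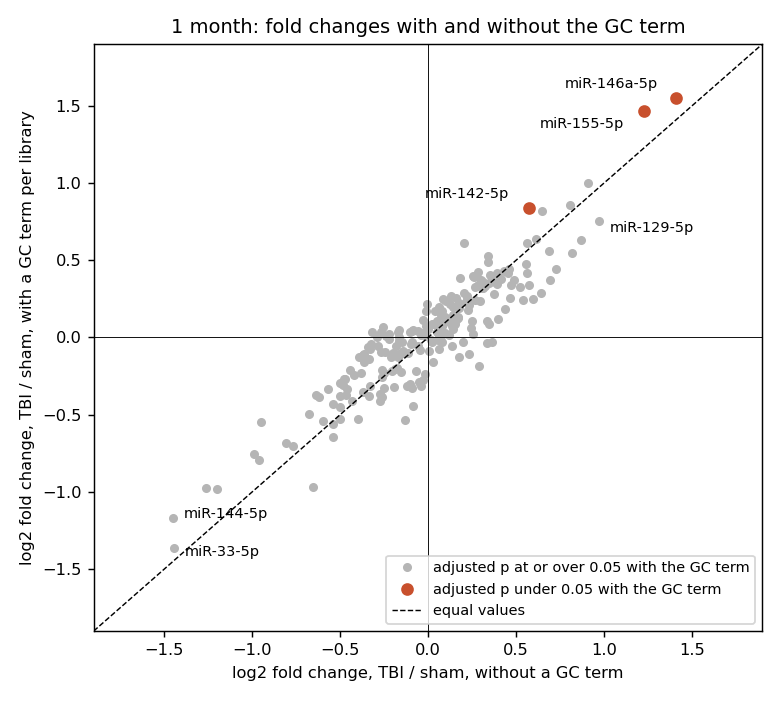
Log2 fold change of 218 miRNAs between TBI and sham rats at 1 m without (x axis) and with (y axis) a GC term per library, with the line of equal values dashed. The 3 miRNAs in red, miR-146a-5p, miR-155-5p and miR-142-5p, lie above the line and had an adjusted p under 0.05 with the term.

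The injury effect at 1 m was then tested against those at other times in 1 fit of all 56 libraries. It differed from the mean effect of the other 6 intervals for 29 of 244 miRNAs (11.9%; edgeR, adjusted p under 0.05), 16 with a more positive and 13 with a more negative effect at 1 m. Against 2 w alone and against 2 m alone, 0 miRNAs (0%) passed. At an unadjusted p under 0.05 these 2 contrasts held 42 and 35 miRNAs, and other settings gave up to 21 calls against 2 w and 11 against 2 m, both on leaving out a TBI rat (X757 and X769). With the GC term, 2 of 221 miRNAs differed from the mean of the other intervals, miR-146a-5p and miR-33-5p, where 26 did on the same 221 miRNAs without it. Without X757 the count was 50, and without X768 it was 8.

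miR-146a-5p had a log2 fold change of 0.43 at 24 h. It stood at 1.24 at 2 w and 1.41 at 1 m, then at 0.85 at 2 m and 0.44 at 3 m. By 6 m it was 0.27 and by 1 y -0.06. The effect at 1 m exceeded the mean of the other intervals by 0.83 (SE 0.22, edgeR, adjusted p = 0.0181). Without sham rat X784 the excess was 0.73 (edgeR, adjusted p = 0.0571) and without TBI rat X768 it was 0.73 (edgeR, adjusted p = 0.0643), so that leaving out either rat ended this call. Its difference from 2 w was 0.13 (SE 0.29) and from 2 m 0.48 (SE 0.29), neither of which passed (edgeR, adjusted p = 0.863 and 0.429). miR-155-5p had its highest value at the first interval and went from 2.76 at 24 h and 1.36 at 2 w through 1.23 (1 m) and 1.06 (2 m) to 0.38 (3 m). Its effect at 1 m did not pass against the mean of the others (difference 0.26, SE 0.29, edgeR, adjusted p = 0.63). miR-142-5p lay between 0.35 and 0.79 at every interval from 24 h to 6 m and at -0.05 at 1 y.

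miR-33-5p differed from zero by more than 1 on the log2 scale at 1 m alone, with -0.03 at 24 h, -0.18 at 2 w, -0.56 (SE 0.51) at 2 m and 0.00 to 0.13 from 3 m to 1 y. The effect at 1 m was lower than the mean of the others by 1.40 on the log2 scale (difference -1.40, SE 0.33, edgeR, adjusted p = 0.00923). Against 2 m the difference was -1.02 (SE 0.45, edgeR, unadjusted p = 0.0274, adjusted p = 0.259), and against 2 w it was -1.30 (SE 0.42, edgeR, adjusted p = 0.124). miR-139-5p, the miRNA with the lowest p in this contrast, had 0.49 at 1 m and between -0.23 and 0.03 at the other intervals (difference 0.51, SE 0.11, edgeR, adjusted p = 0.00484). The contrasts of miR-33-5p and miR-139-5p passed with any 1 of the 8 rats left out. miR-144-5p stood at -1.45 (1 m), -0.52 (2 m) and 1.17 (6 m). Over the miRNAs tested at both times, the log2 fold changes at 1 m correlated with those at 2 m with r = 0.35, and with those at the other 5 intervals with r between -0.08 and 0.12, each interval having its own sham rats.

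**Figure D4:**
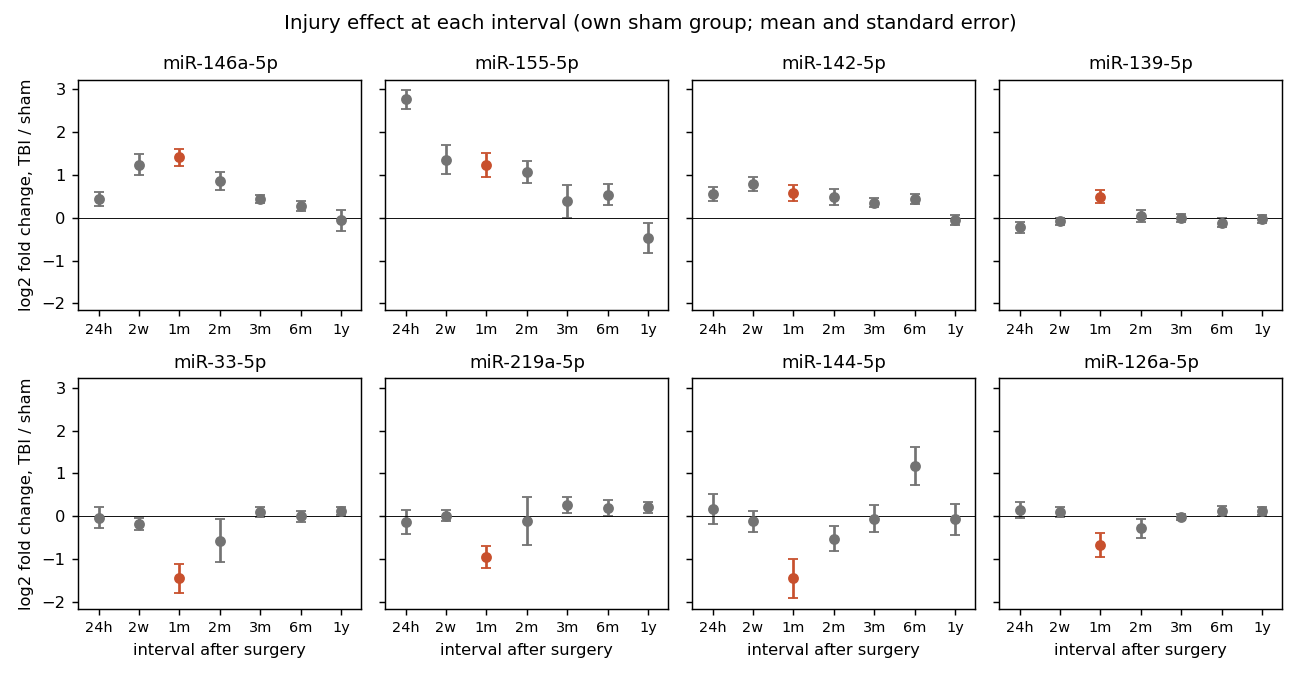
Log2 fold change between TBI and sham rats (y axis, mean and standard error from edgeR) of 8 miRNAs at each interval (x axis), with 1 m in red. miR-146a-5p peaks at 1 m, miR-155-5p is highest at 24 h, and miR-33-5p, miR-219a-5p and miR-144-5p are lowest at 1 m.

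The families and clusters of miRNAs are described by their counts beside all 240 tested, of which 52.1% had positive log2 fold changes. In the family of miR-10, miR-99, miR-100 and miR-125, which is among the most abundant in these libraries, 6 of 7 had positive values, with a median of 0.39 and unadjusted p-values under 0.05 for miR-99a-5p and miR-99b-5p. The summed level of the family was 205194 CPM in X756, 200582 in X757, 255084 in X768 and 339741 in X769, most of it miR-99a-5p in X769. The sham rats had 142524 to 190219 CPM, so that no rats overlapped. The sums of the miR-181 family (31109 to 42382 CPM after TBI, 24674 to 30761 CPM after sham surgery) did not overlap either. Nor did those of the miR-30 family (74097 to 78120 CPM and 66494 to 73156 CPM). In all other lists with tested members, the sums of the TBI and sham rats overlapped. A sum did not stand for every member, since 2 of 4 tested in the miR-181 family and 2 of 5 in the miR-30 family had positive values. All 5 members of the miR-23/27/24 clusters that were tested had positive values (median 0.22), with an unadjusted p under 0.05 for miR-24-2-5p alone. Of the 8 tested in the miR-17-92 cluster and its paralogues, which promote cell proliferation, 7 had positive values (median 0.34) and none an unadjusted p under 0.05.

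The miR-7 family, which in neurons is bound by the circular RNA Cdr1as, depended on X769. miR-7a-5p measured 80080.5 CPM in X769, 31433 in X756, 40695 in X757 and 37409 in X768, and 51668 to 66143 CPM in the sham rats. X769 was above all sham rats and the other 3 TBI rats were below them, so that the log2 fold change of -0.33 (SE 0.25, edgeR, adjusted p = 0.543) became -0.73 without X769 (edgeR, adjusted p = 0.0187). In the miR-181 family, 2 of 4 were positive (median 0.16), with an unadjusted p under 0.05 for miR-181a-5p alone.

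The let-7 miRNAs and miR-98, which share 1 seed, had 4 positive and 5 negative values with a median of -0.01, and none had an unadjusted p under 0.05. The miR-15/16 family had 5 of 6 negative (median -0.16), and the 3 tested miRNAs of motile cilia, which mark ependymal and choroid cells, were all negative (median -0.42). In the miR-30 family the members split. miR-30d-5p measured 23808 to 35732 CPM after TBI and 19463 to 21354 CPM after sham surgery (log2 fold change 0.52, SE 0.16), while miR-30e-5p measured 6254 to 8584 CPM after TBI and 8257 to 11263 CPM after sham surgery (log2 fold change -0.50, SE 0.17), both with an adjusted p of 0.196 in edgeR. Of the 40 tested miRNAs in the imprinted Dlk1-Dio3 cluster, which is expressed in neurons, 16 were positive and 24 negative, with a median of -0.04, 1 with an unadjusted p under 0.05 on the higher side and 4 on the lower, where 8.75% and 9.17% of all miRNAs tested had one.

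Among 7 neuron-enriched miRNAs tested, 4 were positive and 3 negative, with a median of 0.13, and their summed level was 209226 ± 41947 CPM in TBI rats and 248146 ± 28378 CPM in sham rats (SD, n = 4 each), with the groups overlapping. Most of this sum was miR-9a-5p. miR-132 and miR-212, which follow neuronal activity, had values of 0.17 and 0.17. Of the choroid plexus miRNAs, miR-204-5p measured 1456 to 4852 CPM after TBI and 1413 to 4449 CPM after sham surgery (log2 fold change 0.03, SE 0.39), and miR-211-5p had the highest value of the list at 0.80 (SE 0.39, edgeR, adjusted p = 0.294). miR-448-5p and miR-764-5p were at -0.50 (SE 0.36) and -0.09 (SE 0.29). None of these lists had a member past the adjusted threshold.

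**Figure D5:**
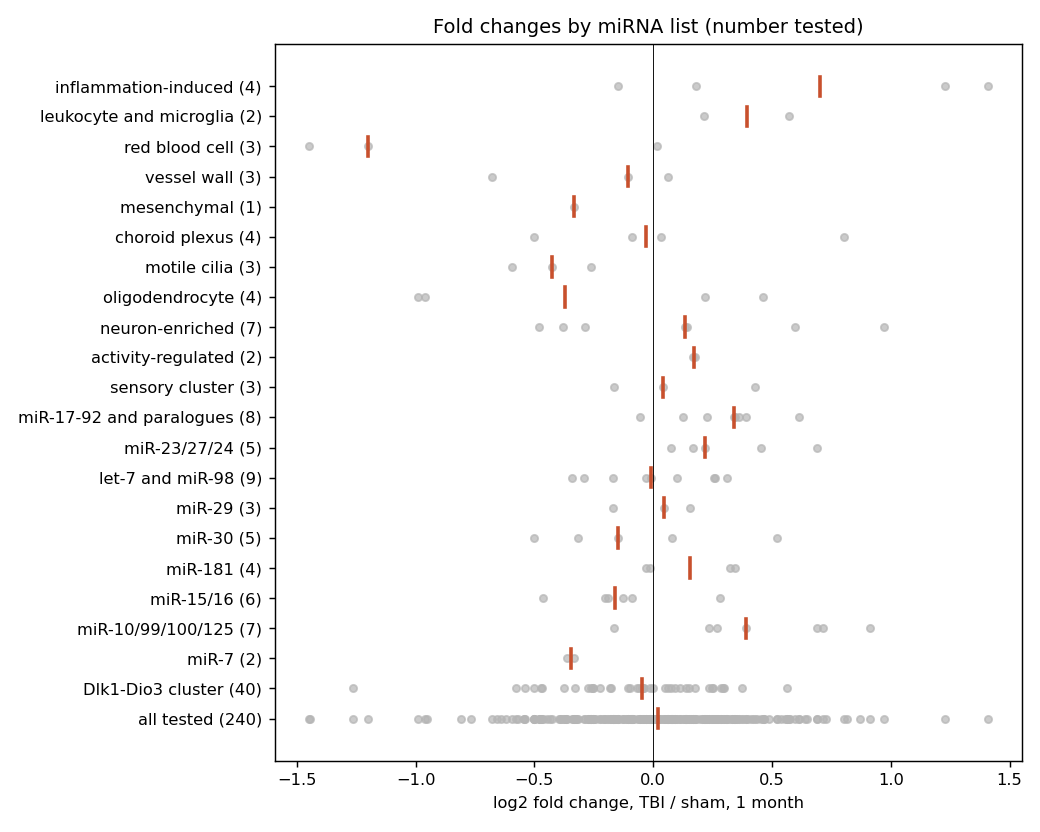
Log2 fold change between TBI and sham rats at 1 m (x axis) of every tested member (grey points) of the miRNA lists (y axis, number tested in brackets), with the median of each list in red. The inflammation-induced list has a median of 0.70, with members from -0.15 to 1.41, and the family of miR-99a-5p has one of 0.39, against 0.02 over all 240 miRNAs.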

How the data were processed

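Small RNA of the hippocampus was sequenced by the authors after NEBNext small RNA library preparation with selection of inserts by size. Reads were demultiplexed with bcl2fastq (version 2.20.0.422 per the submitters' processing notes), trimmed and counted per mature miRNA with miRDeep2 against miRBase. The deposited values are raw counts without normalization, and the treatment of reads matching more than 1 miRNA is not given in the sources used here. Each of the 56 columns was matched to its sample by name, and 0 were left out. miR-299a-3p and miR-299b-3p have identical counts, as do miR-3084b-5p and miR-3084c-5p, and related sequences elsewhere may also share reads.

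The 8 libraries at 1 m were analysed with edgeR 4.0.16 in R 4.3.3 (filterByExpr, TMM, quasi-likelihood test, Benjamini-Hochberg adjustment, threshold 0.05). The standard error was taken as the log2 fold change over the root of F, and CPM values use TMM-scaled library sizes. Permutation tests of mean log2 CPM (prior count 2) were two-sided and exact over 70 splits. p-values measure the spread between the rats of 1 series. Injury effects were compared between intervals in a joint fit of 14 group means. DESeq2 1.42.0 and other scalings, filters and tests, and leaving out each rat, were alternatives. The GC term, a line on GC content fitted per library, entered the fit as a fixed offset. The GC term, edgeR's older quasi-likelihood fit and the restriction to miRNAs with a matched sequence were added after the data were seen. The fits were also run on simulated counts, drawn independently for each miRNA and library and without a GC slope. That run cannot vouch for the calls made here. Libraries of the same group all differed by more than sampling noise.

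The members and lists were chosen with earlier results of these data known. Named miRNAs are those past the adjusted threshold, up to 15 per side with the lowest unadjusted p under 0.05, and the 5 most abundant. Every tested inflammation-induced, leukocyte and microglia or choroid plexus miRNA and those that passed a contrast between intervals were added. Members of other lists, such as miR-338-5p, miR-486 and miR-181a-5p, were named outside this rule and were not followed over the settings. Gene neighbours come from RefSeq GRCr8.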

Additional observations from a re-analysis of the deposited data

Results flagged for a closer look

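Of 118 groups of 4 rats examined, 8 held a rat far from the rest of its group. Chance alone gives about 1 in 20 such groups. TBI rat X769 was the rat in 5 of them: miR-129-5p (36479.7 CPM against 10467 to 11945), miR-204-5p (4852 CPM against 1456 to 2010.4), miR-330-5p (5412 CPM against 3561 to 3872), the summed choroid plexus miRNAs (5029.8 CPM against 1529 to 2123) and the summed miRNAs of motile cilia (1339 CPM against 579 to 697). Sham rat X783 was the rat in 2, miR-101a-5p (3.43 CPM against 2.02 to 2.24) and miR-190a-5p (62.7 CPM against 32 to 35.1). Sham rat X795 was apart in miR-155-5p (13.2 CPM against 6.22 to 7.24). The groups are not independent, since miR-204-5p made up most of the choroid plexus sum in X769. By chance about 5.9 of the 118 groups would hold such a rat. X769 was the highest TBI rat in 102 and the lowest in 80 of all 240 miRNAs tested.

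For 29 miRNAs the injury effect at 1 m differed from the mean effect of the other 6 intervals (edgeR, adjusted p of 0.0468 or less). The effect was more positive at 1 m, on the log2 scale, by 0.51 for miR-139-5p, 0.93 for miR-129-5p, 0.94 for miR-504, 0.63 for miR-99b-5p, 0.48 for miR-330-5p, 0.83 for miR-146a-5p, 0.48 for miR-30d-5p, 0.55 for miR-664-2-5p, 0.62 for miR-149-5p, 0.60 for miR-99a-5p, 0.72 for miR-339-5p, 0.27 for miR-425-5p, 0.44 for miR-351-5p, 0.60 for miR-92b-5p and 0.56 for miR-1306-5p. It was also more positive for miR-292-5p, by 2.86, a miRNA with 3 to 29 reads in the TBI rats and 0 to 5 in the sham rats that was below the filter at 1 m alone. The difference was -1.40 for miR-33-5p, -1.55 for miR-144-5p, -0.73 for miR-126a-5p, -0.51 for miR-30e-5p, -0.58 for miR-450a-5p, -0.47 for miR-218a-5p, -0.51 for miR-3559-5p, -0.99 for miR-190a-5p, -0.48 for miR-376b-5p, -0.41 for let-7f-5p, -0.83 for miR-32-5p, -1.09 for miR-219a-5p and -0.58 for miR-136-5p. Of the 29, 8 passed without X769, which lost miR-129-5p, miR-504, miR-99a-5p, miR-99b-5p and miR-330-5p among others. Without X768 8 passed, without X783 9, without X784 11 and without X756 14. With a GC term per library, miR-146a-5p and miR-33-5p alone passed among the 26 of these with a matched sequence. The cause of the 29 differences was not tested.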

How the results depend on the processing

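miR-146a-5p had an adjusted p under 0.05 in the primary analysis and all 20 other settings, with log2 fold changes of 1.31 to 1.55. The number of miRNAs past the threshold at 1 m was 1 in the primary analysis, 3 without a filter or with the robust quasi-likelihood test, 2 with at least 10 counts in every library, 5 in each of DESeq2's Wald test and edgeR's likelihood ratio test, 45 with the spread of all 56 libraries (24 higher and 21 lower), 3 with the GC term and 1 to 7 when a rat was left out. The count past the threshold on the higher side was 1 to 3, and on the lower side 0 to 4, over those left-out rats, with the most calls without TBI rat X769. At an unadjusted p under 0.05, 36 were higher and 36 lower with the spread of all 56 libraries, 11 were lower with the GC term, and leaving out a rat gave 6 to 25 higher and 11 to 37 lower. The 6 came without sham rat X783, the 37 without TBI rat X757 and the 11 without TBI rat X768, and without sham rat X794 the higher count was 12.

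The number of miRNAs whose effect at 1 m differed from the other 6 intervals was 29, 18 without a filter, 2 with the GC term, and 8 (without X768), 10 (without X783), 12 (without X784), 13 (without X769) and 50 (without X757) when a rat was left out. Against 2 w it was 1 with at least 10 counts in every library and 0 to 21 when a rat was left out (1 without X783, 4 without X756, 21 without X757), and against 2 m 0 to 11 (1 without X794, 11 without X769). The cause was not tested.

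Log2 fold changes near zero turned direction. With the GC term, let-7g-5p was 0.035 and miR-26a-5p 0.043. miR-204-5p was -0.10 with total counts only, -0.070 with the upper quartile, -0.059 without a filter, -0.051 with all 56 libraries and -0.52 to 0.39 when a rat was left out. Leaving out a rat gave -0.0072 to 0.40 for miR-21-5p, -0.27 to 0.051 for miR-26a-5p and -0.35 to 0.029 for miR-764-5p. No paired analysis was possible because each library number at 1 m was shared by 2 libraries of the same group (21 and 22 in sham, 23 and 24 in TBI rats) and the sequencing run of a library is not in the labels, so that no sham library could be matched to a TBI library. With 4 rats a group, an exact permutation p cannot be below 0.0286, and miRNAs with few reads, such as miR-544-5p (1 to 18 per library), carry wide errors.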
